A study of Mus musculus with 18 samples.

Results

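The Toll-like receptors of mouse eosinophils, with their co-receptor Cd14 and their adaptor Myd88, were followed through 6 culture conditions. The 10 genes, chosen by name, were Tlr1, Tlr2, Tlr4, Tlr6, Tlr7, Tlr8, Tlr9, Tlr13, Cd14 and Myd88, out of 54446 genes in the deposited table. The eosinophils were peritoneal cells of Il5Tg mice of the C57BL/6 strain. These mice carry a transgene for interleukin-5, the growth factor of eosinophils, so all cells had matured under an excess of that cytokine. In all 6 groups the cells were cultured for 18 h with apoptotic thymocytes (ACs) of wild-type mice, killed with dexamethasone, at 5 ACs per eosinophil and were then purified again with beads against Siglec-F. The Type 1 experiment had 4 groups, namely a control with ACs and no other stimulus, a bacterial group (E. coli + ACs), a cytokine group (IFN-γ + ACs) and a group with both (IFN-γ + E. coli + ACs). In the group with both, IFN-γ came before the bacteria, per the paper. In the IL-4 experiment there were 2 groups, an ACs control and IL-4 + ACs. Each group had 3 libraries, and each stimulus was compared with the ACs libraries of its own experiment. The age of the eosinophil donors was not given in the sources used here, and cultures without ACs were not analysed here.

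Toll-like receptors recognise molecules shared by many microbes and hold a leucine-rich ectodomain outside the signalling domain. TLR2 pairs with TLR1 or TLR6 at the cell surface to sense bacterial lipoproteins, and TLR4 senses the lipopolysaccharide of bacteria such as E. coli after CD14 has handed it over. TLR7, TLR8, TLR9 and TLR13 sit in endosomes and read nucleic acids, with single-stranded RNA as the ligand of TLR7, unmethylated CpG DNA that of TLR9 and bacterial ribosomal RNA that of mouse TLR13. All of these receptors signal through MyD88, which assembles the IRAK kinases and leads to NF-κB. In eosinophils, which are better known for responses to parasites and allergens, these receptors are a route by which bacteria can be sensed directly.

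Library depth was 779421 to 7782072 reads on genes (median 4461121), and the 2 shallowest libraries were replicate 3 of both groups in the IL-4 experiment, at 849705 reads with IL-4 + ACs and 779421 with ACs. Among eosinophil markers Siglecf was at normalized counts of 1514 to 3367 and Ccr3 at 2623 to 4934, whereas Epx, eosinophil peroxidase, was at 0 to 25.7 and nearly absent. Alox15 was at 5145 to 11929, Il5ra at 102 to 455 and Prg2 at 57.5 to 270.3. The sum of these 6 eosinophil markers was 15568 to 17038 with ACs in the Type 1 experiment, 15743 to 16500.3 with E. coli, 9638 to 10807 with IFN-γ and 13602 to 16114 with both. In the IL-4 experiment it was 17655 to 18529 with ACs and 15415 to 17615 with IL-4. Alox15 weighs most in this sum, with a mean of 9047 over the 18 libraries. All 10 macrophage markers examined were also present, with a summed normalized count of 17984 to 23040 with ACs in the Type 1 experiment, 9743 to 11811 with E. coli, 27235 to 36323 with IFN-γ and 11166 to 12210 with both. In the IL-4 experiment that sum was 27564 to 40725 with ACs and 22412 to 37521 with IL-4. C1qc, Lyz2 and C1qb weigh most in it, with means of 7490, 6422 and 3719 over the 18 libraries. Among the other macrophage markers, Csf1r was at 814 to 1779 and Adgre1 at 1698 to 3140. The summed level of 7 neutrophil markers was 51.6 to 78.3 with ACs, 287 to 392 with E. coli, 65.3 to 140 with IFN-γ and 204 to 254 with both in the Type 1 experiment, and 43.6 to 75.1 with ACs and 113 to 162 with IL-4 in the other. Cxcr2 made up most of it, and Ltf, Mpo, Elane and Camp were at or near 0. For the 10 thymocyte markers the sum was 45.5 to 179 over the 18 libraries. Macrophages and neutrophils carry Toll-like receptors too, and the part of such cells, or of the other cell types above, in the values that follow was not tested. In RNA from bulk cells, fewer cells of a type and less RNA per cell cannot be told apart. Per the paper, flow cytometry of all samples after the Siglec-F beads gave a high eosinophil purity and viability.

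Of the 10 genes, 7 had an upstream sequence in the RefSeq table (assembly GRCm38.p6), with 9 start sites in all. Windows of 250 bases before and 50 after each start site were searched on both strands for the letters of an IRF site (ISRE, GAAANNGAAA) and a κB site (GGGNNTTTCC), which are held by 3.44% and 1.63% of all 32851 windows. The sequences shown are those of Tlr6 and Myd88, the members with such a match, and capitals mark the matched letters. The Tlr6 window, chr5:64959167-64959416 on the minus strand, lies outside annotated exons but inside the annotated span of Tlr6. It holds 2 overlapping ISRE matches from 116 to 101 bases before its RefSeq start site.
Tlr6: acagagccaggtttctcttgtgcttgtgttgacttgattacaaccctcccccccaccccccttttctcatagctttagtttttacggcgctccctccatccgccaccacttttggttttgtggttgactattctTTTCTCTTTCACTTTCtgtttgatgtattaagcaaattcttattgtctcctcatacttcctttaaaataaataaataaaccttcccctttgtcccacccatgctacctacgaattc
The Myd88 window likewise lies inside the annotated span of Myd88, and also inside that of Acaa1a. Of its 250 bases, the 23 nearest to the RefSeq start site lie in annotated exons and are not shown. The stretch shown, chr9:119340042-119340268 on the minus strand, ends 24 bases before that start site. It holds 1 ISRE match, from 40 to 31 bases before the start site.
Myd88: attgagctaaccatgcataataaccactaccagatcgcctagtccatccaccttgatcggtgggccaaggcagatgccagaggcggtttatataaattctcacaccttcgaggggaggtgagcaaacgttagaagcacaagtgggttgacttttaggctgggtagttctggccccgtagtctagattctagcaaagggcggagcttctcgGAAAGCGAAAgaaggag
The windows of Tlr1, Tlr2, Tlr8, Tlr9 and Tlr13 and the other start site of Tlr6 held no match to these letters, and no window of the 7 members held the κB letters. Those κB letters are a narrow form of the site. Other forms were not searched, and the Tlr2 window holds ggggaattcc, which the searched letters do not cover. A match describes letters and not the binding of a factor. Upstream sequences of Tlr4, Tlr7 and Cd14 were not used here.

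CEL-Seq2 reads the 3′ end of each transcript, so levels are not divided by length. Cd14 had by far the highest normalized count, between 2262 and 11686 over the 18 libraries, followed by Tlr13 at 209 to 523 and Myd88 at 314 to 559. The other receptors that passed the filter on low values, a mean normalized count of at least 10, were Tlr1 at 10.7 to 107, Tlr2 at 19.7 to 85.8, Tlr4 at 41.9 to 105, Tlr6 at 34.2 to 113 and Tlr7 at 22.8 to 123. Their ranges overlapped, and so did those of Tlr13 and Myd88. Tlr8 and Tlr9 did not pass and were not tested. Tlr8 had 29 reads in all in 8 libraries, with more than 3 reads in 3 of them, and its highest normalized count was 10.3, which stood for 2 reads in replicate 3 of IL-4 + ACs. Tlr9 had 6 reads in all in 4 libraries and never more than 3 in one, so it was not detectable above 3 reads at this depth.

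**Figure D1:**
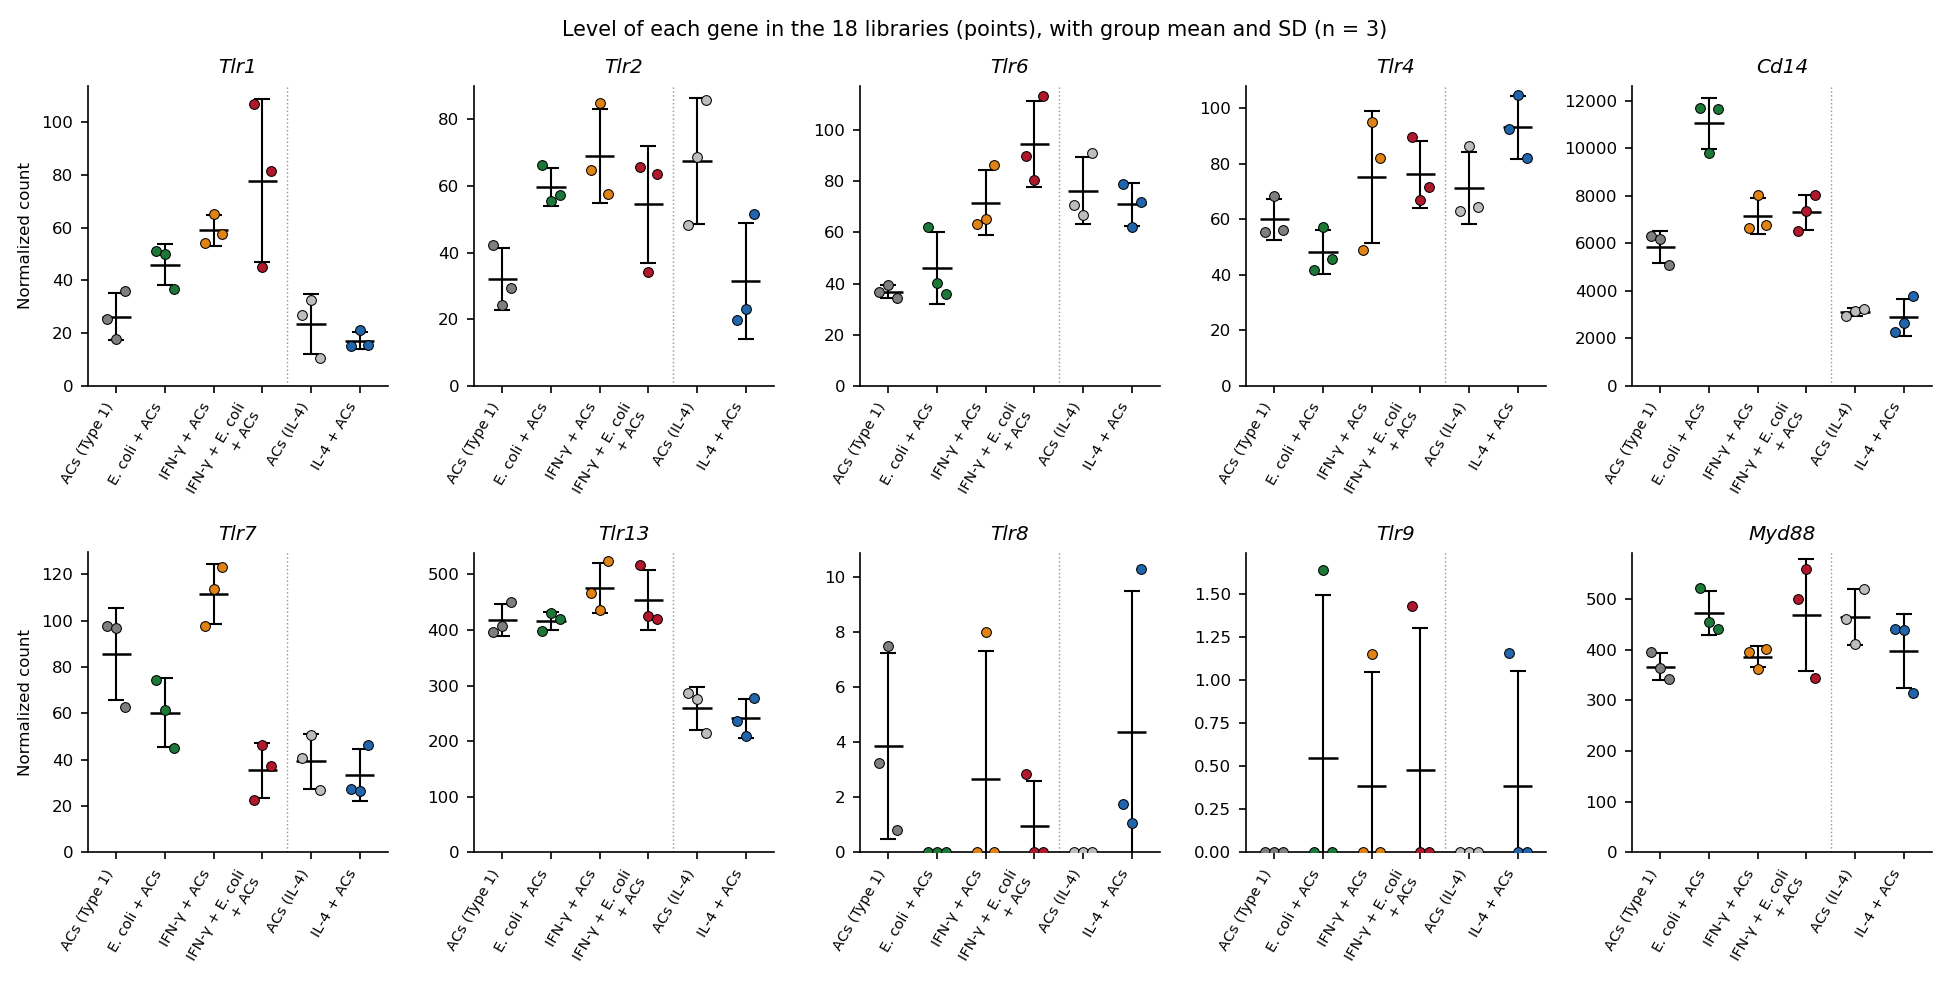
Normalized count (vertical axis, from 0, a separate scale for each gene) of the 10 genes in each of 18 libraries (points), with the group mean and SD (n = 3), where SD bars are cut at 0. Cd14 was highest with E. coli + ACs, Tlr7 lay lowest within the Type 1 experiment with IFN-γ + E. coli + ACs, and Tlr8 and Tlr9 stayed near 0.

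Positions are those of GRCm38. Tlr1 lies on chromosome 5 from 64924679 to 64933563 and Tlr6 beside it from 64952031 to 64960097, 18467 bases apart and both on the minus strand. They are paralogues, and reads from stretches that both genes share could be assigned to neither under unique mapping. Tlr7, on chromosome X from 167304929 to 167330558, has Tlr8 next to it from 167242696 to 167264329 with 40599 bases between them, while Tlr13 is elsewhere on that chromosome from 106143204 to 106160493. Tlr2 is on chromosome 3 from 83836272 to 83841767, Tlr4 on chromosome 4 from 66827584 to 66930284 and Tlr9 on chromosome 9 from 106222598 to 106226883. Myd88, on chromosome 9 from 119335934 to 119341411, overlaps Acaa1a on the other strand and lies inside the span of Slc22a14. It shares 290 of its 2576 exon bases with Acaa1a and none with Slc22a14, and its last exon of 966 bases, where 3′ reads fall, shares no base with either, so only reads in the shared bases are uncertain. Cd14 (ENSMUSG00000051439.6), which was matched to the annotation with the version ignored, overlaps no other annotated gene.

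With E. coli, the bacterial stimulus alone, 2 of the 8 members tested were higher than with ACs, Cd14 and Tlr2, and none was lower. Over all 10166 genes tested in the Type 1 experiment 5.05% were higher and 5.25% lower. The median log2 fold change was 0.32 for the 8 members and -0.00 for all genes. To be called, a gene needed an adjusted p under 0.05 (limma, Benjamini-Hochberg) and a change of at least 1.5-fold, on the scale of log2 of the normalized count plus 1. None was lower at an unadjusted p under 0.05 either, nor past the threshold downwards by edgeR or DESeq2.

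Cd14, the co-receptor that hands lipopolysaccharide to TLR4, stood at normalized counts of 6301, 6195 and 5081 with ACs and at 11686, 9824 and 11666 with E. coli + ACs. All E. coli libraries lay above all ACs libraries. The group means were 5859 ± 676 and 11059 ± 1069 (SD, n = 3), and the fitted change was 1.89-fold, or 0.92 ± 0.12 (SE) on the log2 scale (adjusted p = 2.7e-05, limma). The macrophage marker sum was lower and the neutrophil marker sum higher in the same E. coli libraries, and their part in the Cd14 value was not tested.

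Tlr2, the shared subunit of the lipoprotein receptors, had values of 42.3, 24.4 and 29.4 with ACs and 66.1, 55.6 and 57.2 with E. coli + ACs. The groups did not overlap. The change was 1.88-fold (log2 0.91 ± 0.28, SE, adjusted p = 0.0405, limma), close to the threshold. The call ended without replicate 2 or 3 of ACs or without any one of the E. coli libraries, with adjusted p between 0.0826 and 0.17, and its log2 change was then 0.74 to 0.96.

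Of the partners of Tlr2, Tlr1 had values of 25.2, 17.8 and 35.9 with ACs and 51.1, 49.9 and 36.9 with E. coli + ACs, and the lowest E. coli library was just above the highest ACs library. Its log2 change of 0.82 ± 0.31 (SE) did not pass (adjusted p = 0.092, limma). Tlr6 overlapped between the groups, with a log2 change of 0.28 ± 0.25 (SE). For Myd88 the values were 394, 363 and 342 with ACs and 521, 455 and 440 with E. coli + ACs, without overlap, but a log2 change of 0.36 ± 0.16 (SE) was not past the threshold (adjusted p = 0.142, limma). Tlr4, the lipopolysaccharide receptor itself, was at 55.3, 68.5 and 56.3 with ACs and 41.9, 57.2 and 45.7 with E. coli + ACs. Its groups overlapped, and the 95% confidence interval of its log2 change ran from -0.84 to 0.22. The endosomal receptor Tlr13 had a log2 change of -0.00 with an interval of -0.27 to 0.26, and Tlr7, at 74.5, 61.3 and 44.9, one of -0.50 with an interval of -1.08 to 0.07.

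With IFN-γ, the cytokine of Type 1 responses, the lipoprotein receptor genes Tlr1, Tlr2 and Tlr6 were all higher. They were 3 of the 8 members tested, and none was lower, also at an unadjusted p under 0.05 and by edgeR or DESeq2. Of all genes tested 11.4% were higher and 9.96% lower. The members' median log2 fold change was 0.34, against 0.00 over all genes.

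Tlr1, which binds lipoproteins together with TLR2, was at 54.1, 65.3 and 57.5 with IFN-γ + ACs against 25.2, 17.8 and 35.9 with ACs. No values overlapped, and the change was 2.27-fold (log2 1.18 ± 0.31, SE, adjusted p = 0.0079, limma). Without replicate 2 of ACs, its lowest ACs library, the adjusted p was 0.0514 with a log2 change of 0.94.

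Tlr2 reached 64.6, 84.8 and 57.5, again above all 3 ACs libraries, with a 2.14-fold change (log2 1.10 ± 0.28, SE, adjusted p = 0.0070, limma). Tlr6, the other partner of TLR2, rose from 36.6, 39.4 and 34.2 to 63.3, 65.3 and 86.2 without overlap. Its change was 1.91-fold (log2 0.93 ± 0.25, SE, adjusted p = 0.0081, limma). Of these 3 genes, Tlr6 is the one whose upstream sequence is shown above with ISRE letters, and Tlr1 and Tlr2 had no match to the letters searched. The macrophage marker sum was higher and the eosinophil marker sum lower with IFN-γ + ACs than with ACs, both without overlap, and their part in these values was not tested.

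The remaining members did not pass with IFN-γ. Cd14 was at 6664, 8023 and 6758, above all ACs libraries, with a log2 change of 0.29 ± 0.12 (SE, adjusted p = 0.0847, limma). Tlr7 was at 97.6, 113 and 123 against 97.6, 96.7 and 62.8, its lowest IFN-γ value barely above the highest ACs value, and its log2 change of 0.40 had an interval of -0.18 to 0.97. Myd88, whose window also holds an ISRE, had a log2 change of 0.08 with an interval of -0.25 to 0.40. For Tlr4 and Tlr13 the changes were 0.28 and 0.18, with intervals of -0.25 to 0.81 and -0.08 to 0.45.

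With IFN-γ + E. coli, the combination that defines Type 1 eosinophils in the study, Tlr1 and Tlr6 were higher and Tlr7 was lower. Over all genes tested 14.7% were higher and 17.2% lower, so 2 and 1 of 8 members stand beside a table in which many genes moved. The members' median log2 fold change was 0.33, against -0.05 for all genes.

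Tlr6 reached 89.8, 80.6 and 113 against 36.6, 39.4 and 34.2 with ACs. The lowest value with the combination was above the highest with ACs. It was 2.51-fold higher (log2 1.33 ± 0.25, SE, adjusted p = 2.9e-04, limma).

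Tlr1 was at 107, 45.2 and 81.4, so replicate 2 lay well below the others yet still above all ACs libraries. Its change was 2.83-fold (log2 1.5 ± 0.31, SE, adjusted p = 8.3e-04, limma). In the libraries of the combination the macrophage marker sum was below and the neutrophil marker sum above that of the ACs libraries, and their part in the Tlr1 and Tlr6 values was not tested. Tlr2, at 65.6, 34.2 and 63.5, overlapped the ACs range of 24.4 to 42.3 through the same replicate 2. Its log2 change of 0.73 ± 0.28 (SE) narrowly missed the threshold (adjusted p = 0.0507, limma), which it passed without that replicate (log2 1.02, adjusted p = 0.00675), without replicate 1 of ACs (adjusted p = 0.0273), and with edgeR (0.0475), DESeq2 (0.0426) or a replicate block (0.0481).

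Tlr7, the endosomal receptor for single-stranded RNA, went the other way. Its values were 97.6, 96.7 and 62.8 with ACs against 22.8, 46.4 and 37.2 with the combination, so every library of the latter was below every ACs library. The group means were 85.7 ± 19.8 and 35.5 ± 11.9 (SD, n = 3), a 2.42-fold lower level (log2 -1.28 ± 0.27, SE, adjusted p = 0.0011, limma). The part of the lower macrophage marker sum and the higher neutrophil marker sum of these libraries in the Tlr7 value was not tested either.

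Cd14 was at 6534, 7346 and 8037, above the ACs libraries, with a log2 change of 0.32 ± 0.12 (SE, adjusted p = 0.0422, limma) that was under 1.5-fold. Myd88 ranged from 345 to 559 and overlapped the ACs range of 342 to 394, with a log2 change of 0.32 (adjusted p = 0.108, limma). Tlr4 and Tlr13 had log2 changes of 0.34 and 0.11, with intervals of -0.19 to 0.87 and -0.15 to 0.38.

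**Figure D2:**
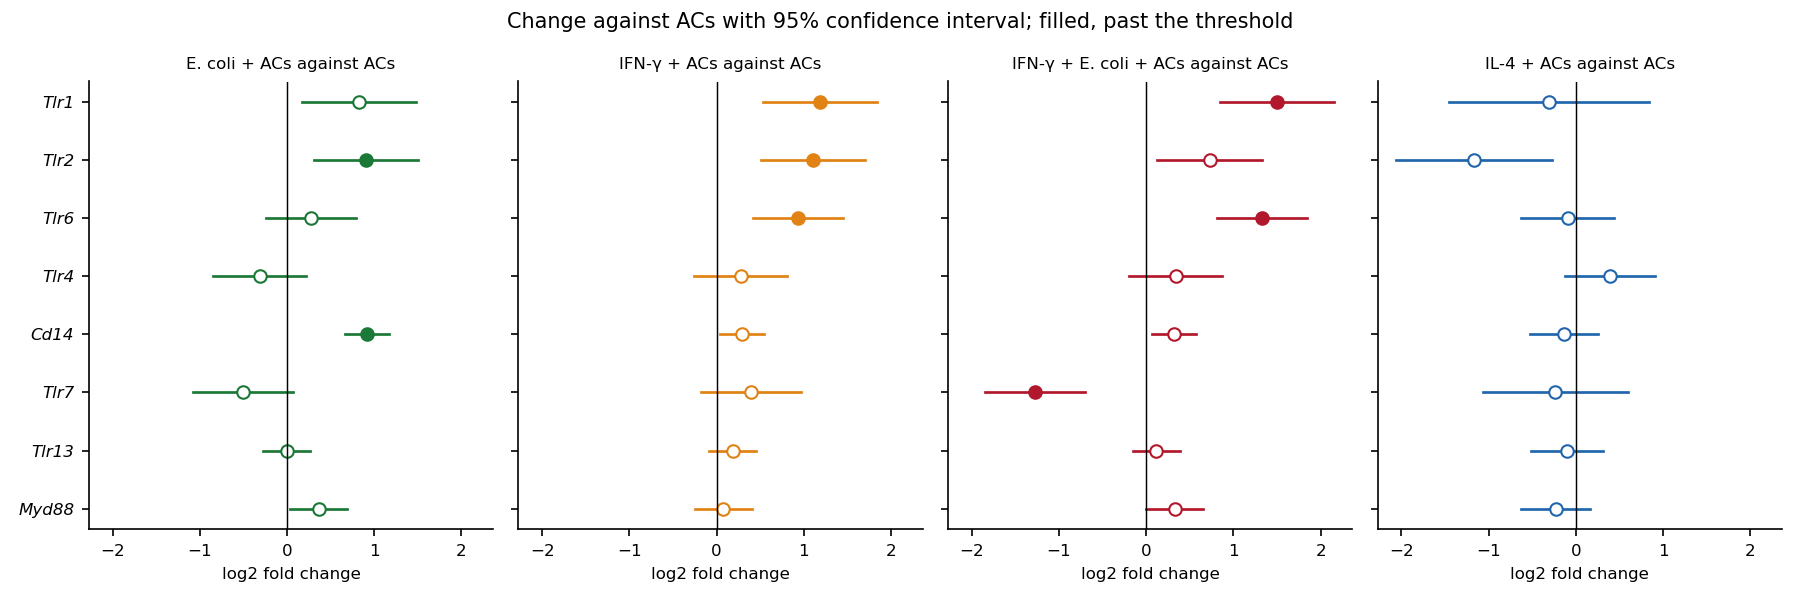
Fitted log2 fold change against ACs (horizontal axis) of the 8 genes tested in the 4 comparisons, with 95% confidence intervals from limma, where filled points are past the threshold. With E. coli Cd14 and Tlr2 are filled, with IFN-γ Tlr1, Tlr2 and Tlr6, with both Tlr1, Tlr6 and Tlr7 (lower), and with IL-4 none.

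The combination was also compared with each single stimulus of the Type 1 experiment. Between the combination and IFN-γ alone, 1 of 8 members was past the threshold, Tlr7, beside 14.6% of all genes in either direction. It fell from 97.6, 113 and 123 to 22.8, 46.4 and 37.2 without overlap, a 3.19-fold lower level (log2 -1.67 ± 0.27, SE, adjusted p = 2.6e-04, limma). Between the same groups the macrophage marker sum fell from 27235 to 36323 down to 11166 to 12210. The eosinophil and neutrophil marker sums were higher, both without overlap. The part of these sums in the Tlr7 value was not tested. The other 7 members had log2 differences of -0.37 to 0.40 in this comparison, and none of them was past an unadjusted p of 0.05.

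With the combination against E. coli alone, Tlr6 was higher and Cd14 and Tlr7 were lower, 3 of 8 beside 19.4% of all genes. Tlr6 went from 61.9, 40.1 and 36.1 to 89.8, 80.6 and 113 without overlap (log2 1.05 ± 0.25, SE, adjusted p = 0.0042, limma). Cd14 dropped from 11686, 9824 and 11666 to 6534, 7346 and 8037, all below the E. coli libraries, a 1.51-fold lower level (log2 -0.60 ± 0.12, SE, adjusted p = 0.0013, limma). That size is at the 1.5-fold limit, and with DESeq2, or without replicate 1 or 3 of E. coli + ACs or replicate 1 of the combination, it was just under it, with log2 changes of -0.52 to -0.58 and adjusted p of 4.8e-05 to 0.0104. Tlr7 was 1.71-fold lower (log2 -0.77 ± 0.27, SE, adjusted p = 0.045, limma) with overlapping groups. The Tlr7 call ended with edgeR (adjusted p = 0.0571), with DESeq2 (0.0548) and without replicate 1 or 2 of E. coli + ACs or replicate 1 or 3 of the combination (0.0605 to 0.205). Tlr4 lay above all E. coli libraries with a log2 difference of 0.65 ± 0.25 (SE), which did not pass (adjusted p = 0.0672, limma). Tlr1 had a log2 difference of 0.68 with overlapping groups (adjusted p = 0.121, limma) and passed without replicate 2 of the combination (log2 1.02, adjusted p = 0.0175). Tlr2, Myd88 and Tlr13 had log2 differences of -0.18, -0.04 and 0.12, also with overlapping groups. The neutrophil and thymocyte marker sums were lower with the combination than with E. coli alone, both without overlap, and their part in these values was not tested.

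The joint change of Cd14 was smaller than the sum of its single changes. On the log2 scale E. coli gave 0.92 and IFN-γ 0.29, a sum of 1.21, whereas both together gave 0.32. The interaction was -0.89 ± 0.17 (SE, adjusted p = 0.0031, limma), and Cd14 was the 1 member past the threshold, beside 7.44% of all genes in either direction. The marker sums also differed between the groups of the Type 1 experiment, and their part in the interactions was not tested. For Tlr2 the sum was 2.01 and the joint change 0.73, with an interaction of -1.28 ± 0.40 (SE, adjusted p = 0.0585, limma), past the threshold with DESeq2 (adjusted p = 0.0417). Leaving out replicate 1 of ACs, replicate 3 of IFN-γ + ACs or replicate 3 of the combination also took Tlr2 past it (adjusted p = 0.0392 to 0.0451). For Tlr7 the sum was -0.11 and the joint change -1.28 (interaction -1.17, adjusted p = 0.0717, limma). Without replicate 2 of the combination the Tlr7 interaction was past the threshold (adjusted p = 0.0275). Tlr6, with 1.21 and 1.33, and Tlr13, with 0.18 and 0.11, had sums near their joint changes, with interaction intervals of -0.61 to 0.85 and -0.44 to 0.31.

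**Figure D3:**
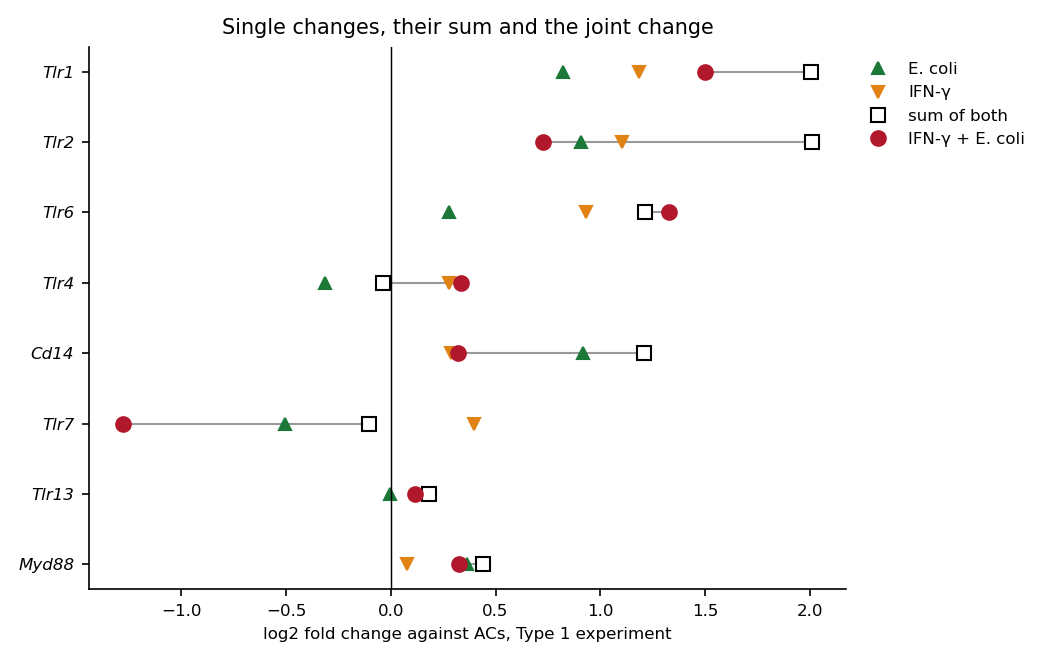
Fitted log2 fold changes against ACs (horizontal axis) in the Type 1 experiment, for E. coli, IFN-γ, the sum of both (open squares) and the combination (circles, joined to the sum by a line). The lines are long for Cd14 (1.21 against 0.32), Tlr2 (2.01 against 0.73) and Tlr7 (-0.11 against -1.28) and short for Tlr6, Tlr13 and Myd88.

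With IL-4, the cytokine of Type 2 responses, none of the 8 members was past the threshold in either direction, by limma, edgeR or DESeq2, and 1 had an unadjusted p under 0.05. Of the 10669 genes tested in the IL-4 experiment 0.74% were higher and 0.347% lower. The members' median log2 fold change was -0.18 and that of all genes -0.01.

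The member with the low unadjusted p was Tlr2. It had values of 48.1, 68.5 and 85.8 with ACs and 19.7, 23.2 and 51.4 with IL-4 + ACs, so replicates 1 and 2 with IL-4 were below all ACs libraries and replicate 3 overlapped them. The log2 change was -1.17 ± 0.40 (SE, adjusted p = 0.375, limma). The eosinophil marker sum was also lower with IL-4 + ACs than with ACs without overlap and the neutrophil marker sum higher, and their part in the Tlr2 values was not tested. In replicate 3 of IL-4 + ACs, its value stands for 10 reads, and without replicate 3 of both groups the log2 change was -1.39 with an adjusted p of 0.0107.

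Tlr1 was at 15.1, 21.1 and 15.4 with IL-4 + ACs and 27.1, 32.7 and 10.7 with ACs, where replicate 3 had 2 reads, and its interval of -1.46 to 0.84 was wide. Tlr4 was at 92.7, 105 and 82.2 against 63.2, 86.4 and 64.3, with a log2 change of 0.39 and an interval of -0.13 to 0.91. Tlr6, Tlr7 and Tlr13 had log2 changes of -0.10, -0.24 and -0.10. Cd14 had values of 2262, 2630 and 3768 with IL-4 + ACs and 2928, 3159 and 3233 with ACs, which overlapped, and its interval was -0.53 to 0.25. Its change with IL-4 was not tested against that with E. coli alone. For Myd88 the interval was -0.63 to 0.17.

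The changes in the 2 experiments were compared directly in all 18 libraries, each against its own ACs. The change with IFN-γ + E. coli exceeded that with IL-4 for 3 of 8 members, beside 20.4% of all 10414 genes in either direction, and for none was it past the threshold the other way, though Tlr7 had an unadjusted p under 0.05. The difference was 1.89 ± 0.49 for Tlr2 (SE, adjusted p = 0.0079, limma), 1.42 ± 0.34 for Tlr6 (adjusted p = 0.0045) and 1.81 ± 0.54 for Tlr1 (adjusted p = 0.0210), on the log2 scale. The Tlr1 difference lost the threshold without any one of 4 libraries, at adjusted p of 0.0516 to 0.0668 (replicate 2 of ACs and replicate 1 of the combination in the Type 1 experiment, replicates 1 and 2 of ACs in the other). Tlr7 differed by -1.04 ± 0.44 (SE, adjusted p = 0.103, limma), Myd88 by 0.56 ± 0.24 (adjusted p = 0.102) and Cd14 by 0.46 ± 0.21 (adjusted p = 0.133), and these did not pass. Cd14 passed without replicate 3 of IL-4 + ACs (log2 0.67, adjusted p = 0.0109), and Myd88 without replicate 3 of the combination (log2 0.76, adjusted p = 0.0154).

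Around the receptors, a list of 38 other genes of Toll-like receptor signalling was examined, of which 32 passed the filter in each experiment. Pik3ap1 passed in the Type 1 experiment alone and Ticam2 in the IL-4 experiment alone, and the others were the same genes. With E. coli, 3 of 32 were higher and 5 lower, beside 5.05% and 5.25% of all genes. The inhibitor Irak3, which blocks the IRAK kinases, was at 251, 212 and 273 with ACs and 787, 759 and 696 with E. coli + ACs, without overlap (log2 1.61, adjusted p = 8.4e-08, limma). The kinase Irak2 rose by 1.38 and the inhibitor Tnfaip3, also called A20, by 0.77 on the log2 scale. The 5 lower genes were Cd180 (log2 -1.63) with its partner Ly86 (-1.34), the co-receptor Cd36 (-1.56), the lipopolysaccharide carrier Lbp (-1.42) and the phosphatase Dusp1 (-0.80). The macrophage marker sum was lower in the same libraries, and its part in these falls was not tested. Of the 7 partners and chaperones 3 were lower, and of the 5 inhibitors tested 2 were higher and 1, Dusp1, was lower.

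With IFN-γ 8 of the 32 were higher and 1 lower, beside 11.4% and 9.96% of all genes. The ubiquitin ligase Peli1 rose by 1.16, the transcription factor Irf5 by 1.13, the receptor Cd180 by 1.02, the kinase Tbk1 by 0.93 and Irak2 by 0.88 on the log2 scale. The lower gene was Irak4, the kinase nearest to MyD88, at 72.6, 56.2 and 86.2 against 146, 130 and 139 with ACs, all below the ACs libraries (log2 -0.96, adjusted p = 0.0024, limma). Of the 5 inhibitors tested 3 were higher and none lower. Cd180 moved in opposite directions with the 2 single stimuli, with values of 142, 93.8 and 116 with ACs, 200, 281 and 230 with IFN-γ and 44.4, 25.3 and 44.0 with E. coli. No groups of these overlapped. The macrophage marker sum was also higher with IFN-γ and lower with E. coli than with ACs, and the eosinophil marker sum was lower with IFN-γ. Their part in the values of this paragraph was not tested.

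With IFN-γ + E. coli 10 of the 32 were higher and 5 lower, beside 14.7% and 17.2% of all genes, so the lower ones were about as frequent as in the whole table. Irak3 reached 1351, 1044 and 1116, a log2 change of 2.25 (adjusted p = 1.1e-10, limma), Tnfaip3 rose by 1.72 and Irak2 by 1.66. Cd36, which delivers lipids to TLR2 and TLR6, fell from 167, 134 and 132 to 11.4, 40.3 and 23.4 without overlap (log2 -2.64, adjusted p = 6.3e-06, limma). Ly86 was lower by a log2 change of -1.80 and Cd180 by -1.68. The macrophage marker sum was lower and the neutrophil marker sum higher in the same libraries than with ACs, and their part in these changes was not tested. Of 12 kinases and ubiquitin ligases 5 were higher and none lower, and of the 5 inhibitors tested 3 were higher and 1, Dusp1, lower. The list's median log2 change was 0.16 with E. coli, 0.31 with IFN-γ and 0.14 with both, against all-gene medians of -0.00, 0.00 and -0.05.

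With IL-4 none of the 32 genes tested in that experiment was past the threshold by limma, edgeR or DESeq2, beside 0.74% of all genes higher and 0.347% lower. An unadjusted p under 0.05 was seen for 5, namely Lbp (log2 -0.996, adjusted p = 0.320, limma), Ly96 (-0.56), Irf7 (-0.35), Tollip (-0.40) and Unc93b1 (-0.47), the chaperone of the endosomal receptors. The median was -0.10. No gene of the list was at 0 in every library. Tlr5 and Sarm1 were the scarcest, at 4 reads each over all libraries.

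**Figure D4:**
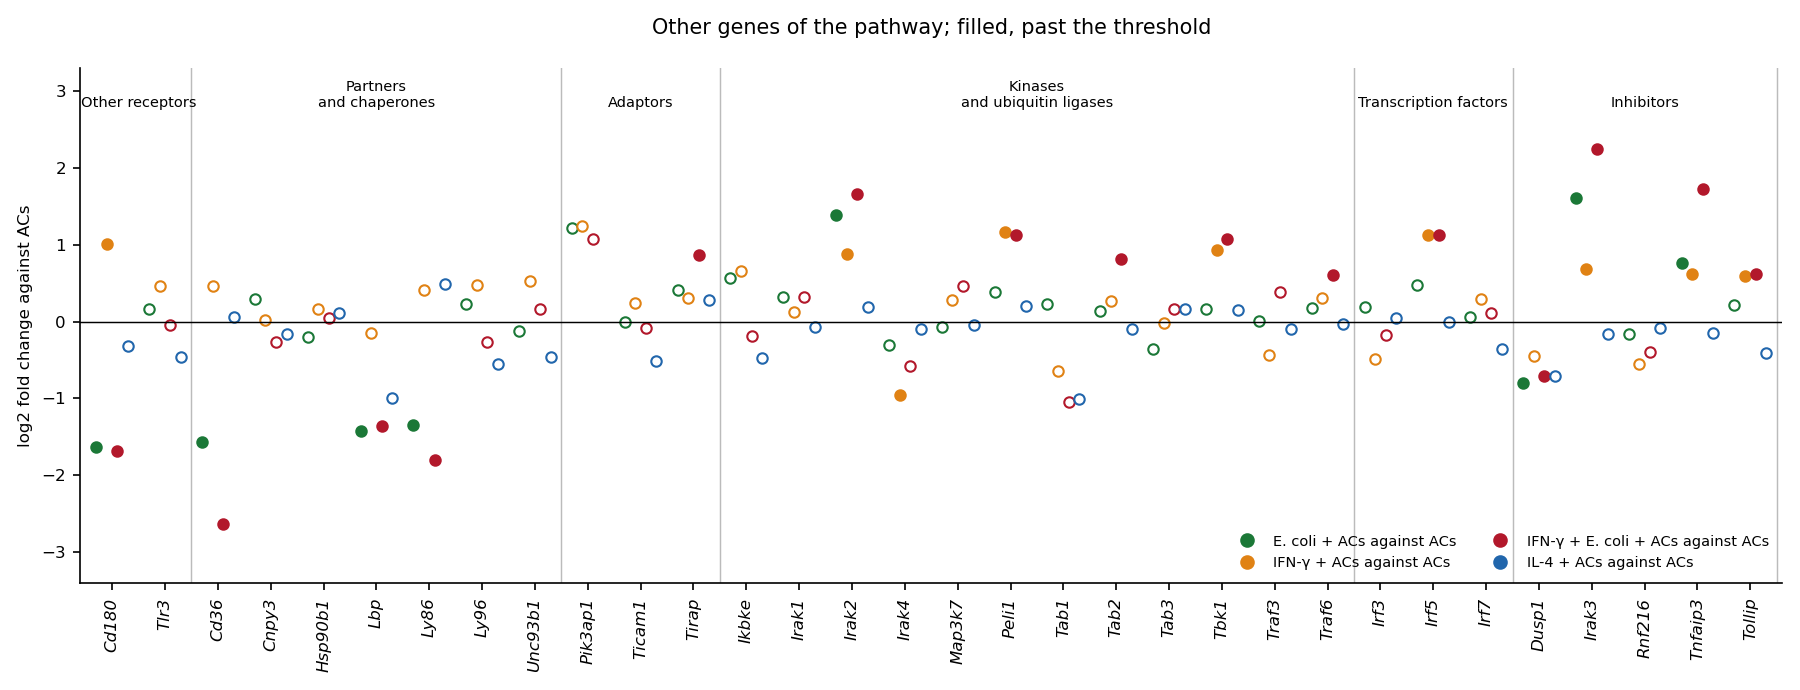
Fitted log2 fold change against ACs (vertical axis) of the 32 other pathway genes tested in the Type 1 experiment (horizontal axis, by role) with E. coli, IFN-γ, both or IL-4, where filled points are past the threshold. Pik3ap1 was not tested with IL-4 and has no such point, and Ticam2, tested with IL-4 alone, is not drawn. Irak3, Irak2 and Tnfaip3 are filled above 0 in all 3 Type 1 comparisons, Cd36, Ly86, Lbp, Cd180 and Dusp1 are filled below 0 with E. coli and with both, and no IL-4 point is filled.

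The genes most like the 3 most abundant members were taken by the root mean square difference between their 4 log2 changes against ACs, over 6357 genes with a mean of at least 50 in both experiments. The 3 Type 1 changes share the ACs libraries. The nearest to Cd14 were Ctu2 (difference 0.103) and Ubqln4 (0.141). Ctu2 had log2 changes of 0.76 with E. coli, 0.21 with IFN-γ, 0.40 with both and -0.07 with IL-4. Nearest to Myd88 were Tmem70 (0.034) and Cul4a (0.041), and nearest to Tlr13 Xpa (0.017) and Hsbp1 (0.03). Xpa had log2 changes of -0.11 to 0.16 and Tmem70 of -0.29 to 0.34 over the 4 comparisons.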

How the data were processed

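The study measured RNA by CEL-Seq2 in 18 libraries of mouse eosinophils with ACs, and the paper gives n = 3 biological replicates. For a comparison of ACs with unstimulated cells it names a separate mouse for each library. For the other groups the source animals are not stated, so p-values measure the spread between these libraries. The deposited values are a signal, which the authors made by dividing each read count by a DESeq2 size factor. The submitters' notes list cutadapt 1.10, TopHat2 2.1.0, Bowtie2 2.2.6, HTSeq 0.6.1 and DESeq2 1.26.0, with GRCm38, and the paper's methods describe a second alignment route. Values were whole multiples of 1 step per library, so whole reads were recovered for 100.0% of values (within 0.0051 of a whole number). All columns of values were used. Of 54446 identifiers, 54409 matched a symbol with the version ignored.

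Limma 3.58.1 (R 4.3.3, eBayes with a trend) was fitted on log2 of the normalized count plus a pseudocount of 1, for genes with a mean of at least 10, on the 12 Type 1 libraries, the 6 IL-4 libraries or all 18, with Benjamini-Hochberg adjustment over all genes tested. The threshold was an adjusted p under 0.05 and at least 1.5-fold, as in the study. Confidence intervals are 95%. The fits were tested on simulated data. Replicate libraries differed by more than counting error (chi-square per degree of freedom 4.19 to 14.7), so none was counted as a repeat of another. Where detection was described, a value of 3 reads or fewer was treated as not told apart from 0, which covers counting error only. The fits used such values as they stood.

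Alternatives were a pseudocount of 5, no filter beyond a value above 0, a stricter mean of 50, a replicate block, a common upper quartile, edgeR 4.0.16 and DESeq2 1.42.0 on recovered reads, all 18 libraries in 1 fit, only the 6 libraries compared, no fold threshold and each library left out. On the recovered reads edgeR called 3276 genes with IFN-γ + E. coli and 212 with IL-4. Members and lists were chosen with earlier results of these data known. All members tested are named in each comparison with ACs, whereas in some of the other comparisons not every member is named. Of the pathway list up to 6 genes were named by size of change among those past the threshold. Tnfaip3 and Dusp1 with E. coli, Dusp1 with both stimuli, and with IL-4 Lbp, Ly96, Irf7, Tollip and Unc93b1, were named after their values were seen, as were Tlr5 and Sarm1. Tables were handled with Python 3.11.15, pandas 2.3.3 and scipy 1.17.1. Motifs were searched as letters in RefSeq windows.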

Additional observations from a re-analysis of the deposited data

Results flagged for a closer look

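The change of Cd14 with E. coli differed with the presence of IFN-γ, by the test of the difference itself. It was 0.92 on the log2 scale without IFN-γ and 0.03 with it, a difference of -0.89 ± 0.17 (SE, adjusted p = 0.0031, limma with Benjamini-Hochberg adjustment). In the presence of IFN-γ, the Cd14 values with and without E. coli overlapped. Without IFN-γ the macrophage marker sum was 17984 to 23040 without E. coli and 9743 to 11811 with it. In the presence of IFN-γ it was 27235 to 36323 and 11166 to 12210. Its part in the Cd14 difference was not tested.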

How the results depend on the processing

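Of 1084 single log2 changes of members recomputed, 1041 kept their direction and side of the threshold or crossed 0 with neither value past it (28 values), 25 lost the threshold, 18 gained it and 0 called values changed sign. The number of members higher with E. coli was 1 with all genes above 0 (Tlr2, adjusted p = 0.0728) and with 18 libraries in 1 fit (0.104), and 1 to 2 when a library was left out. With only the 6 libraries compared, Tlr1 also passed (adjusted p = 0.0434). Against E. coli alone, lower members with the combination numbered 1 with all genes above 0, edgeR or 18 libraries, 0 with DESeq2 and 0 to 2 with a library left out, and higher members 1 to 2. In the interaction 2 members were lower with a mean of at least 50 or DESeq2, and 1 to 2 with a library left out (Tlr2, or Tlr7). Without both shallow replicate 3 libraries, chosen after seeing the data, 1 member and 2 pathway genes were lower with IL-4. Lower pathway genes with IFN-γ numbered 2 with all genes above 0, a common upper quartile, edgeR or DESeq2, 3 with no fold threshold and 1 to 3 with a library left out. The Tlr1 difference between the experiments had an adjusted p of 0.0518 with all genes above 0. The cause of these shifts was not tested.

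No pairing by replicate number was seen in each gene's log2 deviations from its group mean. Between libraries with the same number these deviations correlated at -0.089 to 0.085 in the Type 1 experiment and 0.001 to 0.021 in the other. Pairs with different numbers were not compared and counting error lowers such correlations, so whether libraries shared an animal or batch was not settled. With the replicate block, 3 members were higher with IFN-γ + E. coli in place of 2 (Tlr2 added), and calls over all genes with IL-4 were 74 in place of 116. Over all genes, IL-4 calls were 208 with all genes above 0, 212 with edgeR, 209 with DESeq2, 221 with 18 libraries, 656 without both replicate 3 libraries and 47 to 130 with 1 library left out. Interaction calls were 495 with 18 libraries against 756, and 400 to 1026 with 1 left out. A common upper quartile shifted the median of all genes by -0.137 with IFN-γ + E. coli (1155 higher and 2200 lower, against 1494 and 1746), by -0.105 with the combination against E. coli alone (769 and 1352, against 995 and 973) and by -0.127 between the experiments (870 and 1268, against 1121 and 1007), and no member's call changed with it. With IFN-γ the same scaling gave 966 higher and 1247 lower, against 1160 and 1013. A mean of at least 50 gave 1303 and 963 with IFN-γ + E. coli. Low reads limit Tlr8, Tlr9 and the IL-4 comparison, where 1 read in the shallow libraries stands for a normalized count of 5.14 or 5.36.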
